A study of Mus musculus with 15 samples.

Results

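Il2rg and 8 other genes of lymphoid tissue inducer cells (Il7r, Ltb, Lta, Tnfsf11, Ccr6, Cxcr5, Cd4 and Id2) were followed through fetal mouse small intestine that carried catalytically inactive, deleted or wildtype Casp8. These are 9 of the 36528 genes counted in each library, found by Entrez ID. Il2rg was picked because its level was higher with inactive Casp8 than with wildtype Casp8 in these same libraries, so its differences between groups are given as a description without a test, since each comparison uses the inactive or the wildtype Casp8 libraries. The other 8 genes are known from inducer cells.

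RNA-seq was done on intestine of embryos at day E16.5, with 15 libraries in 3 groups of 5. The first group had a Casp8 knockin of C362A, a substitution of the catalytic cysteine of caspase-8 by alanine (C362A). The second had a Casp8 knockout (knockout) and the third wildtype Casp8 (wildtype). All 3 groups, the wildtype one included, also lacked Mlkl, the pseudokinase that carries out necroptosis, so no library stands for an animal with intact Mlkl. The labels call the tissue of all C362A libraries inflamed and that of all other libraries normal. They give no litter, sex or batch for the embryos and no cell type restriction of the alleles. Nothing says that the 5 libraries of a group came from separate litters, and p-values measure the spread between these libraries.

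Lymphoid tissue inducer cells are innate lymphoid cells of the fetus that start the formation of lymph nodes and Peyer's patches. They display lymphotoxin, a complex of the products of Lta and Ltb, to its receptor on stromal organizer cells, which answer with adhesion molecules and chemokines through the noncanonical NF-kB pathway. Il2rg encodes the common gamma chain, the subunit shared by the receptors for several lymphoid cytokines. With the alpha chain encoded by Il7r it forms the receptor for interleukin-7, on which inducer cells depend. Il2rg is not restricted to inducer cells, since most leukocytes, lymphoid and myeloid, carry the gamma chain.

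Libraries held 31896399 to 38532127 counts, and 18370 genes passed the filter on low counts and were tested. The intestinal epithelium genes Cdx2 and Vil1 were abundant in every group. Their levels were 260 ± 12.6 and 616 ± 70.3 CPM (counts scaled to a common library size) in C362A, 257 ± 38.1 and 770 ± 25.8 CPM in knockout and 273 ± 19.6 and 743 ± 156 CPM in wildtype (SD, n = 5 each). Leaving out C362A replicate 5 took the number of genes called between C362A and wildtype to 1807, against 15 with all libraries. No other fit without 1 library called more genes for that comparison. By chi-square per gene (described below), pairs of C362A replicate 5 with the other C362A libraries ran from 48.51 to 103.1, and wildtype pairs reached 138.2. For the list genes named below, the call for C362A against wildtype without C362A replicate 5 is also given where it differs. Sex was not balanced, as Y-linked genes summed to more than 1 CPM in 2 C362A libraries, 4 knockout libraries and 4 wildtype libraries, and Il2rg lies on the X chromosome.

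The promoter windows of Il2rg, Ltb, Il7r and Ccr6 are shown because the other 3 transcripts varied with Il2rg between libraries of a genotype by Pearson's r (described below). They hold the 250 bases before a transcript start that RefSeq gives, read 5′ to 3′ on GRCm38.p6, and positions are counted from that start. The windows of Il2rg and Ltb are at chrX:101268256-101268505 (minus strand) and chr17:35194257-35194506 (plus strand) and end at the outer edge of the gene. The window of Il7r, at chr15:9529877-9530126 (minus strand), belongs to a start 65 bases inside the gene's outer edge and so overlaps the gene. Ccr6 has 2 windows on the plus strand, at chr17:8235793-8236042 and chr17:8242276-8242525, for starts 2 and 6485 bases inside the gene. Capitals mark matches to 4 motifs searched on both strands, namely the NF-kB consensus, the gamma-activated site TTCNNNGAA, the interferon-stimulated response element and the ETS core CCGGAA.
Il2rg: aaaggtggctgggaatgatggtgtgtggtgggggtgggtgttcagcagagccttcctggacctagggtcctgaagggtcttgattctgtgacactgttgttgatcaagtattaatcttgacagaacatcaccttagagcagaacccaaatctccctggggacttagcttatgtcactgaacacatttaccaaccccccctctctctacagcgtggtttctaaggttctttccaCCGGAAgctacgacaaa
Ltb: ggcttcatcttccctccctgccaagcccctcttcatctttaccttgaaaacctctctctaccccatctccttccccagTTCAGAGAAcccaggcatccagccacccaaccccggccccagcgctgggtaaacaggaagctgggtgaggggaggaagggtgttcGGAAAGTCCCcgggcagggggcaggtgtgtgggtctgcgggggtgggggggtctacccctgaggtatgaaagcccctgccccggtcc
Il7r: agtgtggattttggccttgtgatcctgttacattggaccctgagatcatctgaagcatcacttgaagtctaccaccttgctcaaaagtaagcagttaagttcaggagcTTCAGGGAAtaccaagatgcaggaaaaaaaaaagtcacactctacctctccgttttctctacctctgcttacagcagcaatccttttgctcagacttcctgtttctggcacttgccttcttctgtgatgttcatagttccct
Ccr6 window 1: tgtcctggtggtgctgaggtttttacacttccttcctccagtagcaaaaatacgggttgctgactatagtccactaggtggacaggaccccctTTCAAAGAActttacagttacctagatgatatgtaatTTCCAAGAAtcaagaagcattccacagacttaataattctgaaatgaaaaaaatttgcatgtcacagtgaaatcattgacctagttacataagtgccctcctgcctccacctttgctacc
Ccr6 window 2: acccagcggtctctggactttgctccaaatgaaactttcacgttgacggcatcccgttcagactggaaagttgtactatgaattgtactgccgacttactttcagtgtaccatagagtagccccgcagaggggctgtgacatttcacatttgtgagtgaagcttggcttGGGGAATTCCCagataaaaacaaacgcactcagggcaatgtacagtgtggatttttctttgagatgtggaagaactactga
Il2rg had 1 match, to the ETS core at positions -17 to -12 from the start. Ltb had the NF-kB consensus on the minus strand at -87 to -78 and a gamma-activated site at -172 to -164, and Il7r had a gamma-activated site at -142 to -134. The first Ccr6 window had gamma-activated sites at -157 to -149 and -120 to -112, and the second had overlapping NF-kB matches between -81 and -71. Of 32851 promoter windows of this length, 12% held the ETS core, 7.02% the gamma-activated site, 3.9% the NF-kB consensus and 2.98% the interferon-stimulated response element. No motif was in all of these windows, and a match is a description of letters, not of binding.

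Il2rg (Entrez 16186, chrX:101264385-101268255, GRCm38) was highest in C362A, lower in knockout and lowest in wildtype. Its level was 10.4, 12.1, 12.5, 12.2 and 10.2 CPM in the 5 C362A libraries. In knockout it was 8.45, 9.36, 8.51, 7.29 and 10.9 CPM. In wildtype it was 8.27, 5.79, 7.68, 6.15 and 6.13 CPM. All C362A libraries lay above all wildtype libraries, while the knockout libraries overlapped both other groups, with 1 of them inside the C362A range and 1 inside the wildtype range. Counts behind these levels were 335 to 446 in C362A, 234 to 418 in knockout and 188 to 286 in wildtype.

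The log2 fold change of Il2rg was 0.75 (SE 0.13) for C362A against wildtype, 0.37 (SE 0.12) for C362A against knockout and 0.39 (SE 0.13) for knockout against wildtype. None has a test, because Il2rg was picked on the C362A and wildtype libraries. Separation of all C362A above all wildtype libraries was seen for 0.86% of the genes tested, which is background beside a gene picked for that difference. The comparisons share libraries, so these values are not independent of each other. The sample ID numbers in the labels form 2 unbroken runs, and inside them Il2rg differed between C362A and wildtype by 0.47 and 0.95 in log2 CPM (2 and 3 libraries per group), and between knockout and wildtype by 0.34 and 0.42. With Y-linked expression as a covariate the values were 0.76 for C362A and 0.39 for knockout, each against wildtype. GENCODE lists a gene model, Gm20489, on the same strand that shares 728 of the 2387 exonic bases of Il2rg, so reads there may belong to either model.

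**Figure D1:**
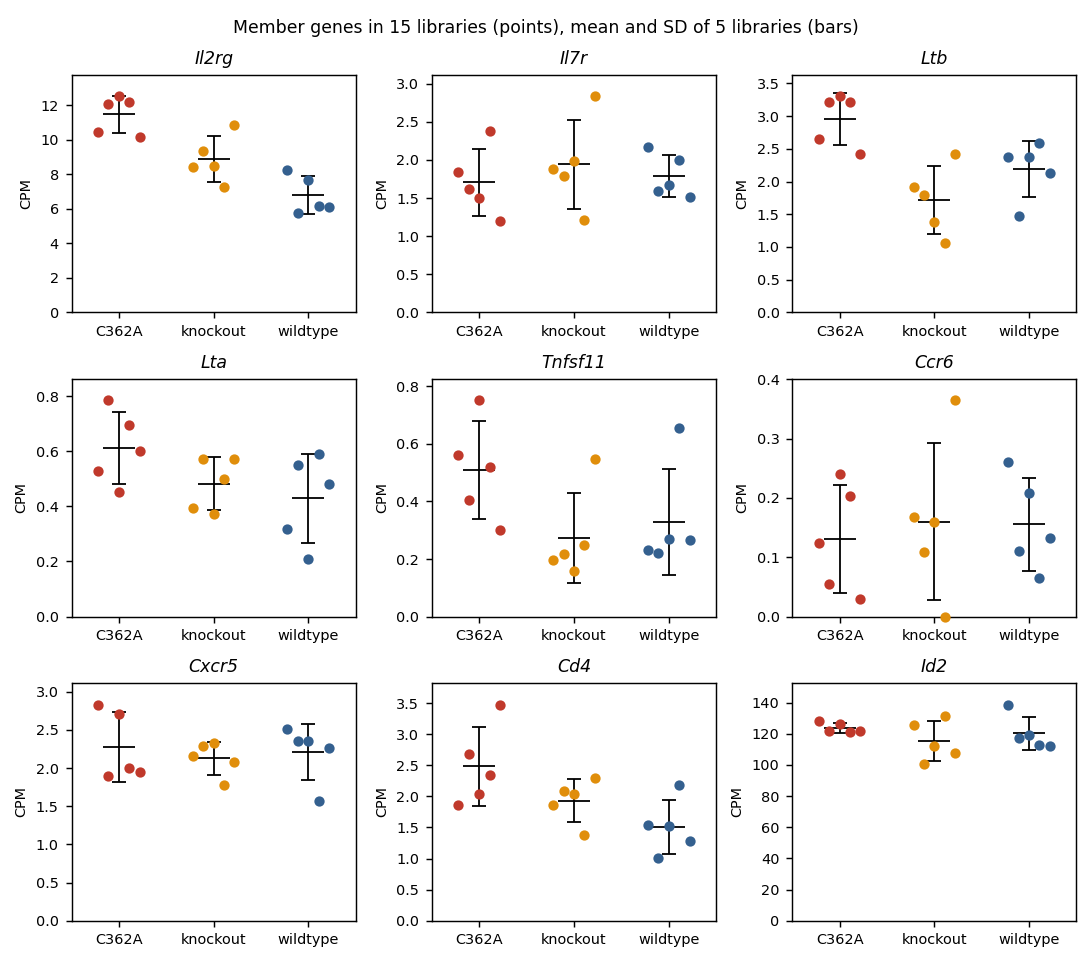
Level in CPM (vertical axes, each from 0) of the 9 genes in the 5 libraries of C362A, knockout and wildtype (points), with the mean and SD of each group (black bars). Il2rg separates C362A from wildtype without overlap, Ltb separates C362A from knockout, and the other 7 genes overlap between all groups.

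The partner of Il2rg in the interleukin-7 receptor showed no separation of the genotypes. Il7r (Entrez 16197, chr15:9506159-9529941) was at 1.84, 1.62, 1.503, 2.37 and 1.199 CPM in C362A, at 1.88, 1.80, 1.99, 1.22 and 2.84 CPM in knockout and at 2.17, 1.59, 1.67, 1.99 and 1.52 CPM in wildtype. The 3 groups overlapped throughout, and the highest and the second lowest level of all 15 were both in knockout. Its log2 fold change was -0.06 (SE 0.22, 95% interval -0.53 to 0.40) for C362A against wildtype and 0.12 (SE 0.22, -0.34 to 0.59) for knockout against wildtype, with edgeR adjusted p = 0.901 and 1.

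On a scale that corrects for transcript length, the deposited size-factor-adjusted RPKM, Il2rg was an abundant chain among the receptors that use it. Il2rg averaged 6.74 ± 0.65 RPKM in C362A, 5.22 ± 0.76 RPKM in knockout and 3.998 ± 0.64 RPKM in wildtype (SD, n = 5 each). Il7r averaged 0.518, 0.589 and 0.543 RPKM in the same 3 groups. The other chains with a level in the range of Il2rg were Il4ra, the interleukin-4 receptor alpha chain, at 6.57, 8.59 and 7.94 RPKM, and Crlf2, the receptor chain for TSLP that pairs with the interleukin-7 receptor alpha chain and not with the gamma chain, at 5.19, 5.37 and 5.73 RPKM in C362A, knockout and wildtype. Il2rb, Il15ra and Il21r lay between 0.287 and 0.704 RPKM in every group mean, and Il2ra and Il9r between 0.0521 and 0.104 RPKM. The order of Il4ra above Il2rg held in the knockout and wildtype means and not in the C362A means, where both overlapped within their spread (5.96 to 8.12 RPKM for Il4ra and 5.93 to 7.36 RPKM for Il2rg).

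**Figure D2:**
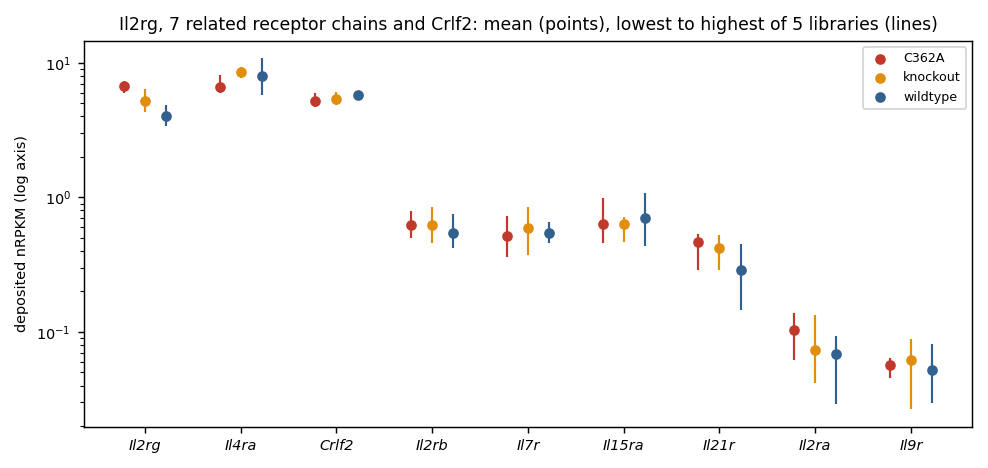
Deposited size-factor-adjusted RPKM on a log axis for Il2rg and 8 receptor chains of its cytokine family and of TSLP, as group means (points) with the lowest to the highest of 5 libraries (lines). Il2rg, Il4ra and Crlf2 form the abundant set and Il2ra and Il9r the scarce one, and Il2rg is the one chain drawn whose C362A and wildtype ranges do not overlap.

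Of the 22 other genes of the gamma chain pathway (receptor chains, cytokines, JAK kinases, STAT factors and inhibitors), 18 could be tested and none was called in any comparison by edgeR, DESeq2 or limma-voom. Before adjustment, 2 were higher and 2 lower at p under 0.05 for C362A against wildtype, against 8.08% and 7.8% of all genes, with 7 of 18 positive and a median log2 fold change of -0.09 (0.01 over all genes). The smallest p belonged to Il21r, the interleukin-21 receptor chain, at 1.36 ± 0.29 CPM in C362A, against 1.24 ± 0.28 CPM in knockout and 0.843 ± 0.329 CPM in wildtype, with a log2 fold change of 0.69 (SE 0.27, edgeR adjusted p = 0.285) for C362A against wildtype. Jak1, a kinase of these receptors, had 0.21 (SE 0.08, edgeR adjusted p = 0.285), and 0.04 as the adjusted p without C362A replicate 5, where 4.29% of all genes were called higher and 5.47% lower. Of 15 fits without 1 library, Jak1 passed in 1. The cytokine genes Il7 and Il15 had log2 fold changes of -0.50 (SE 0.21) and -0.48 (SE 0.22) for C362A against wildtype, with edgeR adjusted p-values of 0.292 and 0.305, and Il15 passed without C362A replicate 5 (adjusted p = 0.0379). Il2, Il4, Il9 and Il21 averaged under 0.2 CPM in every group.

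The lymphotoxin genes were low. Ltb (Entrez 16994, chr17:35194507-35196305), which encodes the membrane anchor of lymphotoxin, was at 2.65, 3.22, 3.31, 3.21 and 2.43 CPM in C362A. It was at 1.91, 1.80, 1.38, 1.06 and 2.42 CPM in knockout and at 2.37, 1.48, 2.38, 2.58 and 2.13 CPM in wildtype. Every C362A library lay above every knockout library, by a narrow margin at the nearest pair, while wildtype overlapped both. Such a separation in this direction was seen for 1.11% of genes tested. The log2 fold change was 0.79 (SE 0.21, 95% interval 0.35 to 1.22) for C362A against knockout, 0.44 (SE 0.20, 0.01 to 0.87) for C362A against wildtype and -0.35 (SE 0.21, -0.79 to 0.09) for knockout against wildtype. None passed with all libraries (edgeR adjusted p = 0.317, 0.313 and 1). Without C362A replicate 5 the difference between C362A and knockout was 0.85 and passed (edgeR adjusted p = 0.0419), in a fit that called 1.78% of all genes higher and 2.57% lower, while over all fits without 1 library the adjusted p was 0.0419 to 0.575.

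Lta (Entrez 16992, chr17:35203165-35205578), the soluble lymphotoxin subunit, rested on 15 to 29 counts per library in C362A, 14 to 22 in knockout and 7 to 20 in wildtype. Its level was 0.612 ± 0.132 CPM in C362A, against 0.481 ± 0.096 CPM in knockout and 0.429 ± 0.161 CPM in wildtype (SD, n = 5 each), and the groups overlapped. The log2 fold change for C362A against wildtype was 0.51 (SE 0.29, 95% interval -0.09 to 1.12, edgeR adjusted p = 0.365). In the 2 runs of sample ID numbers it was 1.24 and 0.03.

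Tnfsf11 (Entrez 21943, chr14:78277446-78308043) encodes RANKL, a TNF family ligand that inducer cells use in lymph node formation. It was at 0.560, 0.406, 0.751, 0.521 and 0.300 CPM in C362A, at 0.197, 0.218, 0.159, 0.249 and 0.547 CPM in knockout and at 0.231, 0.219, 0.268, 0.654 and 0.266 CPM in wildtype. Apart from 1 high library in knockout and 1 in wildtype, these groups lay below all C362A libraries. The log2 fold change was 0.87 (SE 0.39, 95% interval 0.04 to 1.70) for C362A against knockout and 0.64 (SE 0.39, -0.18 to 1.47) for C362A against wildtype, with edgeR adjusted p = 0.347 and 0.397. These values rest on 6 to 25 counts per library.

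The chemokine receptor genes that guide inducer cells to organizer sites overlapped between the genotypes. Ccr6 (Entrez 12458, chr17:8236041-8258519), the receptor for CCL20, had 1 to 8 counts in C362A libraries, 0 to 14 in knockout and 2 to 9 in wildtype. It is the 1 of the 9 genes that did not pass the filter on low counts, and it got no test. The 0 in knockout replicate 4 allows up to 0.0887 CPM, which covers counting error only. Cxcr5 (Entrez 12145, chr9:44511787-44526444), the receptor for CXCL13, was at 2.28 ± 0.45 CPM in C362A, against 2.13 ± 0.22 CPM in knockout and 2.21 ± 0.37 CPM in wildtype, with a log2 fold change of 0.04 (SE 0.17, 95% interval -0.32 to 0.39) for C362A against wildtype and -0.06 (SE 0.17, -0.41 to 0.30) for knockout against wildtype (edgeR adjusted p = 0.926 and 1). Cxcr5 overlaps the gene Bcl9l on the other strand over 110 of its 3332 exonic bases, and the library kit does not mark strand, so reads there cannot be assigned to one of them.

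Cd4 and Id2 complete the set. Cd4 (Entrez 12504, chr6:124864693-124888247), a coreceptor carried by part of the mouse inducer cells, by T cells and by some myeloid cells, was at 1.87, 2.68, 2.04, 2.34 and 3.48 CPM in C362A. It was at 1.85, 2.09, 2.04, 1.37 and 2.29 CPM in knockout and at 1.53, 1.01, 1.52, 2.19 and 1.28 CPM in wildtype. Its order of means was that of Il2rg, with overlap between each pair of groups. The log2 fold change was 0.72 (SE 0.22, 95% interval 0.26 to 1.19) for C362A against wildtype and 0.36 (SE 0.22, -0.10 to 0.83) for knockout against wildtype, and neither passed (edgeR adjusted p = 0.285 and 1).

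Id2 (Entrez 15902, chr12:25093799-25096092) encodes an inhibitor of helix-loop-helix factors that all innate lymphoid cells require and that many other cells make. It was the most abundant of the 9 genes per length, at 94.7 ± 2.64 RPKM in C362A, 88.4 ± 10.1 RPKM in knockout and 92.1 ± 8.08 RPKM in wildtype (SD, n = 5 each). Its log2 fold change was 0.04 (SE 0.08, 95% interval -0.12 to 0.21) for C362A against wildtype, the narrowest interval of the set in that comparison.

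**Figure D3:**
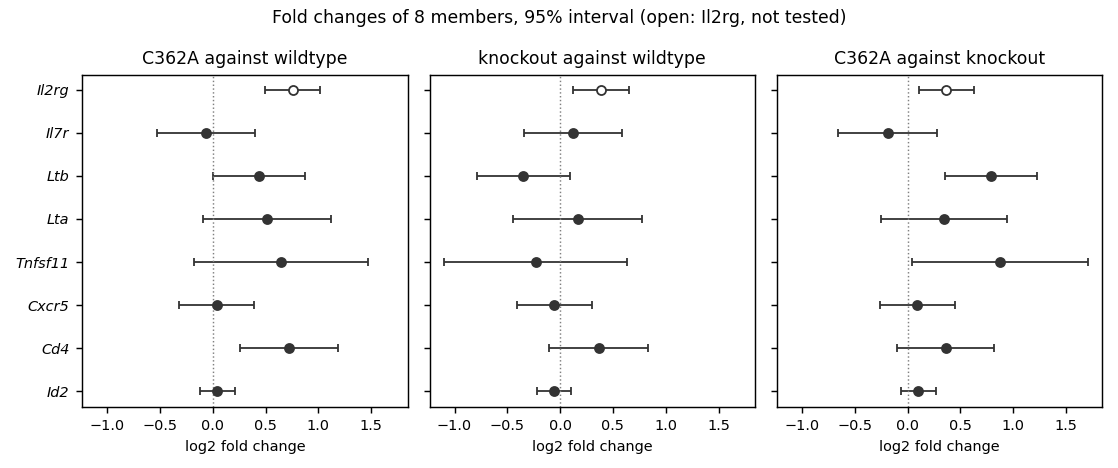
Log2 fold changes with 95% intervals from edgeR for the 8 genes that passed the filter, in 3 comparisons. Open circles mark Il2rg, which has no test (0.75, 0.39 and 0.37), and filled circles mark tested values, of which none passed after adjustment over all genes.

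Counted together, 0 of 7 tested genes passed for C362A against wildtype, 0 of 7 for knockout against wildtype and 0 of 7 for C362A against knockout by edgeR, with Il2rg left out. Over all genes, 0.0817%, 0.0381% and 0.0109% were called in these comparisons. DESeq2 and limma-voom also called 0 in each. At an unadjusted p under 0.05, Ltb and Cd4 were higher for C362A against wildtype, 0 genes for knockout against wildtype, and Ltb and Tnfsf11 for C362A against knockout. The background at that threshold was 8.08%, 1.2% and 6.49% of genes higher, and 7.8%, 1.23% and 7.41% lower, where 0 of these genes were lower. Differences were positive for 6 of 7, 3 of 7 and 6 of 7 genes, against 51.4%, 48.2% and 53.2% of all genes. None of the 9 lay wholly below the group it was set against, which 0.299%, 0.332% and 1.74% of all genes did, and none lay wholly above it for knockout against wildtype, which 0.37% did. Calls in the higher direction over all genes were 0.0817%, 0.0272% and 0.0109%. The median log2 fold change of these genes was 0.44, -0.06 and 0.35, against 0.01, -0.00 and 0.01 over all genes tested.

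Between libraries of 1 genotype, which the choice of Il2rg did not use, Il2rg varied with Ltb, Il7r and Ccr6. After subtraction of the genotype means, Pearson's r to Il2rg over the 15 libraries was 0.77 for Ltb (adjusted p = 0.012) and 0.65 for Il7r (adjusted p = 0.0343), by a two-sided permutation test within genotypes with adjustment over 8 relations. Spearman's rho was 0.72 for Ltb (permutation adjusted p = 0.0307) and 0.64 for Il7r (permutation adjusted p = 0.0626), so Il7r passed by r and not by rho. Raw permutation p-values of r were 0.00301 for Ltb and 0.0129 for Il7r. The r of Ccr6 was 0.77 (rho 0.825, permutation p = 0.00231 for r and 0.00122 for rho, adjusted p = 0.012 and 0.00976), on 0 to 14 counts per library. For Lta, Tnfsf11, Cxcr5, Cd4 and Id2, r lay between -0.32 and 0.30 and did not pass (permutation p from 0.329 to 0.847 for r, adjusted p from 0.446 to 0.847).

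These relations rest in part on single libraries. Without the 2 libraries farthest from the median of Il2rg (knockout replicate 5 and wildtype replicate 1), r was 0.73 for Ltb, 0.67 for Ccr6 and 0.43 for Il7r (permutation p = 0.0163, 0.0211 and 0.161). The relation of Il7r did not hold without them, nor without any 1 of 8 single libraries. Without knockout replicate 4, which was lowest in its group for Il2rg, Ltb, Il7r, Ccr6 and Cd4, r was 0.69 for Ltb and 0.71 for Ccr6, and neither passed (adjusted p = 0.0576 for both by permutation). Within the 2 runs of sample ID numbers, r was 0.94 and 0.72 for Ltb, 0.96 and 0.45 for Il7r and 0.83 and 0.78 for Ccr6 (6 and 9 libraries, no test). Other genes, picked for their likeness to Il2rg (below), had within-genotype r of 0.84 (Tgfbr2), 0.80 (Hk1), 0.75 (Ly6e), 0.71 (Vcam1) and 0.51 (Adam17). The share of all genes with such an r was not counted. These relations are thus not shown to be particular to inducer cell genes. All values of a library share its RNA and its scaling.

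**Figure D4:**
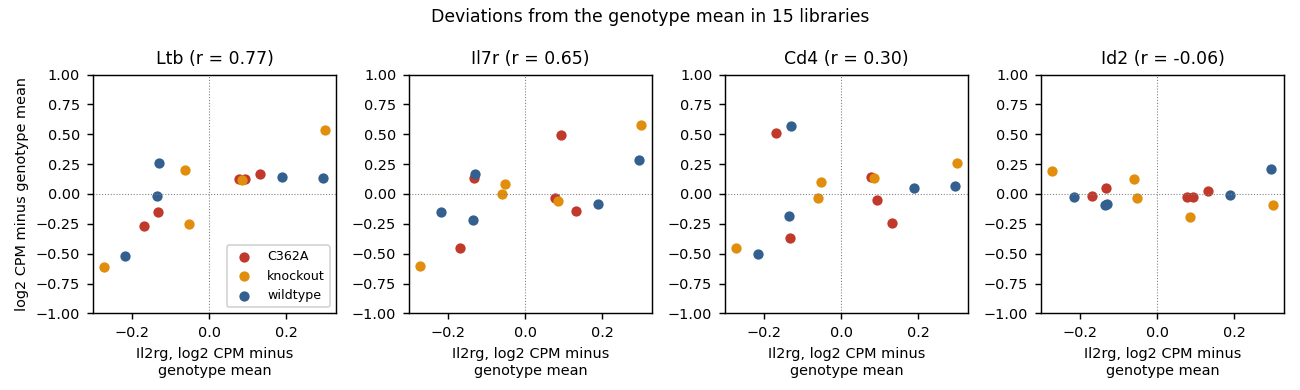
Deviation of each library from its genotype mean in log2 CPM, for Il2rg (horizontal axes) and Ltb, Il7r, Cd4 and Id2 (vertical axes), colored by genotype. Ltb (r = 0.77) and Il7r (r = 0.65) go up along Il2rg, while Cd4 (r = 0.30) and Id2 (r = -0.06) scatter.

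Over all 15 libraries, genotype differences included, the genes whose log2 CPM was most like that of Il2rg among 14544 genes of sufficient level included Vcam1, Ly6e, Hk1, Adam17 and Tgfbr2, with Pearson's r of 0.90, 0.90, 0.90, 0.87 and 0.86 and rho of 0.93, 0.88, 0.91, 0.89 and 0.88. No test is attached, since these are the highest of many and Il2rg was picked for its own difference. Vcam1, an adhesion molecule that organizer cells and activated endothelium display, was at 27.8 ± 5.54 CPM in C362A, against 19.95 ± 4.36 CPM in knockout and 15.6 ± 2.10 CPM in wildtype. Ly6e, a GPI-anchored protein gene induced by interferon, was at 142 ± 6.74, 112 ± 11.8 and 104 ± 12.1 CPM in C362A, knockout and wildtype. Among the other inducer cell genes, Cd4 ranked 218 of 14544 (r = 0.70), Ltb 844 (r = 0.60), Cxcr5 5343 (r = 0.20) and Id2 6341 (r = 0.11). Il7r, Lta, Tnfsf11 and Ccr6 were not among the genes of sufficient level. The macrophage gene Adgre1 ranked 18 (r = 0.82), ahead of all these inducer cell genes, and the leukocyte gene Ptprc ranked 434 (r = 0.65).

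Other genes of inducer cells and group 3 innate lymphoid cells showed no call. Of 22 in the list 17 could be tested, and edgeR, DESeq2 and limma-voom called 0 in each comparison. At an unadjusted p under 0.05, 1 was higher and 2 lower for C362A against wildtype, against 8.08% and 7.8% of all genes. The median log2 fold change was 0.07 with 11 of 17 positive, against 51.4% of all genes. Tnfrsf11a, the receptor for RANKL, had -0.22 (SE 0.09, edgeR adjusted p = 0.291). Il22, Il17a, Il17f, Il23r and Ncr1 averaged under 0.2 CPM in every group.

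The list of genes on the receiving side of lymphotoxin held 1 call with all libraries, and bulk RNA does not show which cells made that transcript. Of 19 genes (receptors, noncanonical NF-kB factors, chemokines and adhesion molecules) 16 could be tested. For C362A against wildtype 1 was higher and 0 lower by edgeR, and 0.0817% of all genes were called higher. At p under 0.05 before adjustment 7 were higher and 0 lower, against 8.08% and 7.8% of all genes. DESeq2 called 2 and limma-voom 1. Without C362A replicate 5, edgeR called 3 higher, and 4.29% of all genes. Madcam1, the mucosal ligand for homing lymphoid cells, was at 23.1 ± 3.03 CPM in C362A, against 17.2 ± 0.79 CPM in knockout and 14.8 ± 2.75 CPM in wildtype. It rose in C362A against wildtype (log2 fold change 0.64, SE 0.12, edgeR adjusted p = 0.0431), although it passed in 3 of 15 fits without 1 library. Vcam1 had 0.83 (SE 0.16, edgeR adjusted p = 0.0583). It passed in 3 of 15 fits without 1 library, that without C362A replicate 5 among them (edgeR adjusted p = 0.0138). Cxcl13, the ligand of Cxcr5, was at 39.2 ± 8.76 CPM in C362A, against 30.9 ± 6.86 CPM in knockout and 25.4 ± 3.02 CPM in wildtype, with 0.63 (SE 0.16, edgeR adjusted p = 0.285), chosen after its values were seen. It passed without C362A replicate 5 (0.74, edgeR adjusted p = 0.0186). The receptor gene Ltbr was at 171 ± 14.9, 179 ± 16.1 and 186 ± 19.8 CPM in the same groups. Ccl19 and Ccl21a had 0 counts in every library. For knockout against wildtype and for C362A against knockout, 0 of the 16 were called by edgeR (0 also by the other tools, DESeq2 and limma-voom, and 1 and 6 higher at p under 0.05 before adjustment). Of all genes 1.2% and 6.49% were higher at that threshold. Without C362A replicate 5, 2 of the 16 were called higher for C362A against knockout by edgeR, and 1.78% of all genes.

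Markers of other leukocytes were measured beside Il2rg, since bulk RNA cannot tell more cells of a type from more RNA per cell. The 12 genes of all leukocytes summed to 348 to 438 CPM in C362A, 354 to 427 CPM in knockout and 310 to 425 CPM in wildtype. Lcp1 alone averaged 217, 245 and 217 CPM in these groups, so the sums mostly follow that gene. It had a log2 fold change of -0.002 (SE 0.14) for C362A against wildtype. Sums of the other lists also follow their most abundant genes. None of the 12 was called in any comparison by edgeR. For C362A against wildtype 8 were higher and 0 lower at p under 0.05 before adjustment, with 10 of 12 positive and a median log2 fold change of 0.38, while 8.08% of all genes were higher at that threshold. DESeq2 called 2 of them and limma-voom 0. Without C362A replicate 5, edgeR called 6 of the 12 higher, and 4.29% of all genes. For C362A against knockout it then called 2 of the 12 higher, and 1.78% of all genes. Ptprc, which encodes the leukocyte antigen CD45, was at 14.8 ± 3.61 CPM in C362A, against 12.5 ± 2.12 CPM in knockout and 11.02 ± 1.21 CPM in wildtype. Cd52 and Arhgdib had the smallest p of this list, with log2 fold changes of 0.56 (SE 0.13) and 0.38 (SE 0.09) and an edgeR adjusted p of 0.246 for both. With the mean of the 12 genes as a covariate, Il2rg had a log2 fold change of 0.66 for C362A against wildtype and 0.35 for knockout against wildtype, against 0.75 and 0.39 without it.

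Defining T cell genes were near 0, with Cd3e at 0.012 CPM in C362A, against 0.0873 CPM in knockout and 0.0961 CPM in wildtype, and Cd3d, Cd8a, Cd8b1, Cd2, Cd5, Themis and Rag2 under 0.2 CPM in every group. Of 15 T cell genes 5 could be tested and 0 were called by edgeR, and Lck had the smallest p (0.25, SE 0.11, edgeR adjusted p = 0.302), ahead of Cd3g (-0.22, SE 0.24, 0.646). The T cell list summed to 55.1 to 68.0 CPM in C362A, 59.1 to 64.3 CPM in knockout and 55.5 to 62.6 CPM in wildtype. Most of it came from Bcl11b (32.8, 35.4 and 32.2 CPM in the same groups) and Cd247 (17.1, 16.4 and 16.6 CPM). Natural killer and group 1 genes summed to 5.38 to 7.04, 4.999 to 6.61 and 3.90 to 6.81 CPM in C362A, knockout and wildtype, group 2 genes to 17.7 to 33.3, 21.9 to 33.8 and 19.9 to 34.6 CPM, and B cell genes to 10.5 to 16.47, 7.73 to 16.3 and 9.09 to 13.6 CPM. In these 3 lists 8 of 11, 6 of 9 and 3 of 9 genes could be tested, and edgeR called 0 for C362A against wildtype. The smallest p in them belonged to the granzyme gene Gzmb (0.82, SE 0.44) and the chemokine gene Xcl1 (-0.51, SE 0.43), to the prostaglandin synthase gene Hpgds (-0.57, SE 0.25) and the interleukin-33 receptor gene Il1rl1 (0.49, SE 0.28), and to Cd79b (0.40, SE 0.21) and Ebf1 (0.22, SE 0.20), with edgeR adjusted p-values from 0.298 to 0.581.

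Myeloid lists held the other call. Macrophage and monocyte genes summed to 327 to 410 CPM in C362A, 314 to 410 CPM in knockout and 289 to 426 CPM in wildtype, and 1 of 15, Adgre1, was higher in C362A than in wildtype by edgeR (1 by DESeq2 and 0 by limma-voom). Over all genes 0.0817% were called higher by edgeR. At p under 0.05 before adjustment 5 of the 15 were higher and 1 lower, against 8.08% and 7.8% of all genes. Adgre1, which encodes F4/80, was at 14.3 ± 1.42 CPM in C362A, against 12.4 ± 2.67 CPM in knockout and 8.52 ± 0.85 CPM in wildtype (log2 fold change 0.75, SE 0.13, edgeR adjusted p = 0.0361, passing in 4 of 15 fits without 1 library). For knockout against wildtype it had 0.54 (SE 0.13, edgeR adjusted p = 0.8). Lyz2 had 1.001 (SE 0.28, edgeR adjusted p = 0.285) for C362A against wildtype. The lower one was Mertk, a receptor for the uptake of dead cells, at 42.0 ± 11.7 CPM in C362A, against 57.8 ± 8.23 CPM in knockout and 57.1 ± 11.97 CPM in wildtype (-0.44, SE 0.17, edgeR adjusted p = 0.285). Neutrophil genes summed to 11.9 to 93.2 CPM in C362A, 12.9 to 66.2 CPM in knockout and 10.2 to 39.5 CPM in wildtype, with 0 of 11 called by edgeR. For C362A against wildtype all 11 were positive, against 51.4% of all genes, with a median of 0.96. Retnlg (1.74, SE 0.61) and Mmp8 (2.04, SE 0.72) had the smallest p (edgeR adjusted p = 0.285 for both). Without C362A replicate 5, Lyz2, Retnlg and Mmp8 passed as higher for C362A against wildtype, as did Cd52, Arhgdib and Pecam1 of the other lists (edgeR adjusted p from 0.0181 to 0.0475). Hpgds passed as lower (-0.85, edgeR adjusted p = 0.03). Each of these, Hpgds included, passed in 1 of 15 fits without 1 library. Mertk also passed as lower without C362A replicate 5 (-0.62, edgeR adjusted p = 0.0273), and 3 of the 15 macrophage genes were called higher. In that fit 4.29% of all genes were called higher and 5.47% lower. Dendritic cell genes summed to 65.4 to 79.1, 70.5 to 82.5 and 64.7 to 97.0 CPM in the 3 groups with 0 of 7 called. For C362A against wildtype Siglech had -0.70 (SE 0.29, edgeR adjusted p = 0.29) and Irf8 -0.18 (SE 0.12, edgeR adjusted p = 0.435). Siglech was lower still for knockout against wildtype (-1.27, SE 0.30, edgeR adjusted p = 0.7). In the list of gut wall genes, Pecam1 and Myh11 had the smallest p (0.27, SE 0.07, and 0.26, SE 0.08, edgeR adjusted p = 0.285 for both).

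Genes of the epithelium and of the rest of the gut wall were measured beside these. Of the 12 gut wall genes 0 were called by edgeR, DESeq2 or limma-voom for C362A against wildtype. At p under 0.05 before adjustment 3 were higher and 4 lower, against 8.08% and 7.8% of all genes. The 3 higher ones, Pecam1, Myh11 and Acta2 (0.29, SE 0.10), are not epithelial genes. The 4 lower ones were the fatty acid binding protein gene Fabp2 (-1.02, SE 0.37), the apolipoprotein gene Apoa1 (-0.65, SE 0.24), the microvillus gene Vil1 (-0.27, SE 0.12) and the transcription factor gene Cdx1 (-0.21, SE 0.10), with edgeR adjusted p from 0.285 to 0.304. Fabp2 was at 824 ± 382 CPM in C362A, against 1669 ± 291 CPM in knockout and 1674 ± 1003 CPM in wildtype. Without C362A replicate 5, Fabp1 and Fabp2 passed as lower (-0.84 and -1.34, edgeR adjusted p = 0.0392 and 0.0406), and Acta2 and Pecam1 as higher. For C362A against knockout, edgeR then called 1 gut wall, 1 macrophage and 1 group 2 gene lower, and 2.57% of all genes. Mertk, Ptprc, Lcp1, Bcl11b, Cd247 and the gut wall genes other than Pecam1 and Myh11 were chosen after their values were seen. The part of any of these cell types in the level of Il2rg was not tested. The pan-leukocyte covariate fit above is not such a test, since its 12 genes did not move alike. Their log2 fold changes for C362A against wildtype ran from -0.24 to 0.56.

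**Figure D5:**
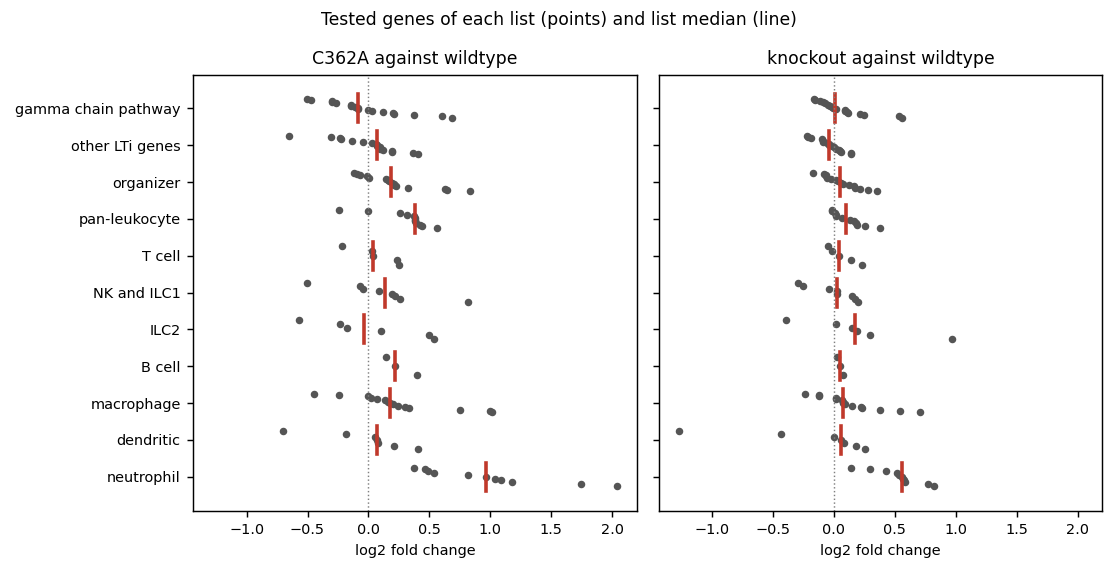
Log2 fold changes of the tested genes of 11 lists (points) with the list median (line), for C362A against wildtype (left) and knockout against wildtype (right). The pan-leukocyte and neutrophil medians for C362A against wildtype (0.38 and 0.96) lie right of 0, and the medians of the gamma chain pathway (-0.09) and of the other inducer cell genes (0.07) lie near it. The neutrophil median for knockout against wildtype (0.56) also lies right of 0.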

How the data were processed

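The deposited files give, per gene, counts of reads aligned uniquely within a gene model and size-factor-adjusted RPKM values, per the file headers. The method behind that size factor was not given in the sources used here. Per the submitters' processing notes, reads were aligned with GSNAP to GRCm38. Per the labels' protocols, polyA libraries were made with an Illumina TruSeq kit, whose chemistry does not mark strand, and sequenced single-end. Entrez IDs were matched to RefSeq symbols and coordinates (GRCm38.p6) for 31049 of 36528 IDs; the unnamed IDs held 1.69% to 1.96% of counts and stayed in the fits. Of 172 list entries 171 were found, all but Ighm.

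All 15 libraries were fitted in 1 model with edgeR 4.0.16 (R 4.3.3), using TMM factors, a low-count filter (count minimum 10, total minimum 15), robust quasi-likelihood tests and Benjamini-Hochberg adjustment over 18370 genes with a threshold of 0.05. The procedure was tested on simulated data. CPM are scaled by the TMM factors, log2 CPM used a prior count of 2, and permutation tests used 100000 resamples. Between libraries of a genotype, chi-square per gene ran from 10.69 to 138.22 where counts averaged 50 or more, far above sampling noise, so each counted as 1 sample. Replicate numbers follow accession order and pair no libraries. Fold change intervals rest on the spread between libraries, and the limit for a count of 0 covers counting error only. DESeq2 1.42.0, limma-voom (limma 3.58.1), other scalings and filters, covariates, limma on log2(RPKM + 0.1) and each library left out in turn were alternatives.

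The members and gene lists were chosen with earlier results of these data known. The text names all 9 members, from each list the genes called (up to 6) and the 2 with the smallest p for C362A against wildtype, and the 6 genes with the highest r to Il2rg among those averaging 1 or more in log2 CPM. Of these, 1 list gene and 1 gene alike to Il2rg are not reported here.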

Additional observations from a re-analysis of the deposited data

Results flagged for a closer look

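Among 27 groups of 5 libraries (9 genes in 3 genotypes), 4 held a library far from the other 4 by Dixon's test, where chance gives about 1 in 20. Tnfsf11 was at 0.547 CPM in knockout replicate 5 and at 0.654 CPM in wildtype replicate 4, each the highest of its group. Cxcr5 was at 1.57 CPM in wildtype replicate 4, the lowest of its group. Id2 was at 139 CPM in wildtype replicate 1, the highest of its group.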

How the results depend on the processing

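Il2rg had a log2 fold change of 0.66 to 0.77 for C362A against wildtype over 11 other settings and 0.70 to 0.84 without 1 library, and 0.35 to 0.40 and 0.31 to 0.47 for knockout against wildtype, all without a test. No member was called in any comparison under the settings run, except Ltb for C362A against knockout without C362A replicate 5, so that count was 0 to 1 over the fits without 1 library. Among member values without 1 library, 351 kept direction and call, 8 turned and 1 gained a call; under other settings 254 kept both and 3 turned. Inside the ID runs, which have no test, 30 values moved by less than the replicate SD and 18 by more. Il7r turned to 0.077 with the Y-linked covariate for C362A against wildtype and to -0.010 with the pan-leukocyte covariate for knockout against wildtype, and Cxcr5 to -0.067 with the pan-leukocyte covariate for C362A against wildtype. Without 1 library, Il7r ranged from -0.21 to 0.039 and Cxcr5 from -0.068 to 0.10 for C362A against wildtype, and Il7r from -0.051 to 0.25, Lta from -0.0080 to 0.30 and Tnfsf11 from -0.65 to 0.16 for knockout against wildtype. Genes called over the whole table numbered 15, 7 and 2 for C362A against wildtype, knockout against wildtype and C362A against knockout. For C362A against wildtype they were 7 with the Y-linked covariate, 9 with the pan-leukocyte covariate and 54 by DESeq2. For knockout against wildtype they were 3, 4 and 13 in the same order, and 1 in a fit of only those groups. For C362A against knockout they were 27 by DESeq2 and 4 in a fit of only those groups. Without 1 library they ranged from 7 to 1807, from 1 to 8 and from 2 to 805; the cause of these moves was not tested. Within-genotype r to Il2rg ranged without 1 library, an alternative chosen after seeing the data, from 0.68 to 0.87 for Ltb, 0.70 to 0.83 for Ccr6, 0.52 to 0.71 for Il7r, -0.050 to 0.50 for Tnfsf11 and -0.47 to 0.23 for Id2. The call of Il7r was lost without C362A replicate 4 or 5, knockout replicate 1, 4 or 5, or wildtype replicate 1, 2 or 5. No paired analysis was possible because the labels carry no replicate numbers. Lta, Tnfsf11 and Ccr6 rest on few reads.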
